A study of Mus musculus with 3 samples.

Results

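H3K36me3 peaks that fell in the later introns of very long genes were examined in regulatory T cells (Treg cells) of the mouse spleen and large intestine (LI). A peak belonged to this set when its midpoint lay in the body of a protein-coding gene of at least 200 kb, outside every annotated exon, outside the first intron of the longest coding transcript of that gene and more than 1 kb from any annotated transcript start. The rule used the GENCODE M21 annotation and positions only, and no signal value entered it. It found 8905 of the 120910 peaks (7.36%), in 283 genes. Both libraries came from CD3+CD4+YFP+ Treg cells sorted from C57BL/6 mice of the Foxp3-YFP genotype at steady state, a line in which Foxp3 drives YFP and, per the study's methods, Cre, and no group carried a floxed allele or a treatment. Cells of 7 female and 7 male mice were pooled, so each tissue had 1 immunoprecipitated library and no replicate, and differences between the libraries were therefore described without a test. Another library, input chromatin of splenic Treg cells, was used by the authors to call peaks and its values were not analysed here.

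H3K36me3 is placed by Setd2, which travels with elongating RNA polymerase II, so the mark lies over the bodies of transcribed genes and usually grows denser towards their 3′ ends. In a very long gene most of the sequence is intron, and the polymerase must cross all of it before the transcript is finished. The later introns of such genes thus report on transcription far from the promoter, although a second promoter inside the gene can place them close to a start again.

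The values were mean read coverage per peak in RPKM, that is, read density scaled by length and by library depth. The median later-intron peak of a very long gene stood at 9.64 RPKM in spleen and 9.77 RPKM in LI, and the highest peak reached 31.6 and 39.8 RPKM. These peaks were short, with a median length of 383 bp against 456 bp over all peaks, and 15.2% of them were 1 kb or longer against 23.3% of all peaks. At the depth of the libraries, and with each read taken to cover 200 bp, a median peak held about 10.5 reads in spleen and 13.7 in LI. A single peak thus carried a counting error of about 0.62 on the log2 scale, and sums over genes were used instead. In 1456 of the 8905 peaks (16.4%) the peak reached into an exon although its midpoint did not, and exons made up 5.57% of all bases of the set. Another 560 peaks (6.29%) lay in the body of a second coding gene as well, so that their signal could not be assigned to the long gene alone.

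The following sequences show what kind of DNA the set holds, from the strongest peak of each gene that led the tissue comparison and from the peaks with the lowest and the highest GC content among those with at least 20 RPKM over both libraries. They are given 5′ to 3′ on the plus strand of GRCm38 (mm10) from RefSeq, in lower case, with CpG dinucleotides in capitals. The Neb stretch, chr2:52248284-52248583, is the centre of an 850-bp peak that lay 769 bp from the nearest exon and read 5.96 RPKM in spleen and 22.9 RPKM in LI. The Aff3 stretch, chr1:38535292-38535410, is a 119-bp intron between coding exons under a 1037-bp peak of 23.9 RPKM in spleen and 8.32 RPKM in LI, so this peak covered exon sequence on both sides. The Utrn stretch, chr10:12647846-12648145, was 93.7% repeat and had the lowest GC content (31.0% over the peak), and the Vps8 stretch, chr16:21513661-21513907, had the highest (63.6%).
Neb: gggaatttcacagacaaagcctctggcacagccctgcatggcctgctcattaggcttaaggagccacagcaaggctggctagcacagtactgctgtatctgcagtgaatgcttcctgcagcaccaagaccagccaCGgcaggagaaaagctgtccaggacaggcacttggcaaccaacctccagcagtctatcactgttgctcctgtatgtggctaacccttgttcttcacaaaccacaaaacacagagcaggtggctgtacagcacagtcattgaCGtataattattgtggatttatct
Aff3: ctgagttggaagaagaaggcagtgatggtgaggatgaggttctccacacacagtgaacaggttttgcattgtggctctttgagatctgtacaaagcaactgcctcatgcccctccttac
Utrn: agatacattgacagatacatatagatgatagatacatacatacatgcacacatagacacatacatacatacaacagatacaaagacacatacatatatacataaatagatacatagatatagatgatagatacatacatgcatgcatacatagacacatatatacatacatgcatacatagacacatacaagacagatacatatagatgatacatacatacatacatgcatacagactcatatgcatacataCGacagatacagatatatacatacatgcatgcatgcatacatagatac
Vps8: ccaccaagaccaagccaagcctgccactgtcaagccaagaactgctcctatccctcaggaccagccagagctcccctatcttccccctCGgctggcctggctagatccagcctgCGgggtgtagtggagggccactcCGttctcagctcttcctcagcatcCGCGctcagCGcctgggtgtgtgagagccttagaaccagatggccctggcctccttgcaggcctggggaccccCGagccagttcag
The Neb and Aff3 genes lie on the minus strand, so their transcripts read as the reverse complement of these lines. The Utrn peak read 15.0 RPKM in spleen and 10.7 RPKM in LI, and the Vps8 peak read 7.06 and 13.2 RPKM.

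Most very long genes carried no such peak. Of the 998 coding genes of 200 kb or more, 283 (28.4%) held at least 1 and 715 held none. The share fell with length, from 37.6% of the 431 genes of 200 to under 300 kb to 25.5% of the 337 genes of 300 to under 500 kb, 17.0% of the 171 genes of 500 kb to under 1 Mb and 10.2% of the 59 genes of 1 Mb or more. The genes without a peak included 53 of 54 genes of neuronal synapses and axons in this length class, and the 2 peaks of the remaining one, the potassium channel partner Kcnip4, also lay in another coding gene. Of 14 adhesion and cell surface receptor genes 13 held none. Of 17 large genes known for fragile sites 14 held none, which was close to the share among all genes of 500 kb to under 1 Mb (142 of 171). By contrast, 18 of 21 genes of antigen receptor and second messenger signalling and 10 of 13 T cell transcription factors held peaks. The lists were drawn up with earlier results of these data known and were not matched for gene length, so the counts are descriptions.

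Among the 283 genes the number of peaks was uneven, with a median of 18 and a maximum of 245, and 10 genes together held 1649 peaks (18.5%). Inpp4b, a phosphoinositide phosphatase that restrains PI3K signalling, held 245 peaks in 785 kb. Dock2, which activates Rac in leukocytes, held 196 peaks, of which 81 also lay in another coding gene. Itpr2, an inositol trisphosphate receptor of the endoplasmic reticulum, held 180 peaks, Utrn, which encodes the dystrophin relative utrophin, held 168, and Skap1, an adaptor that links the T cell receptor to integrins, held 162. The peaks of the set together covered 8.13% of the 75.7 Mb of later intron that could have held one in these genes. Coverage per gene ranged from 0.553% to 97.7% in the 181 genes with at least 10 peaks, with a median of 8.80%. It was 66.3% in Eif4g3, a scaffold of translation initiation, 50.3% in Dock2, 47.1% in Itpr2 and 43.6% in Neb, but 1.14% in Adam12 and 2.74% in Patj, so peaks filled much of some genes and were sparse in others.

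The longest peaks of the set were broad domains rather than short summits. A 34564-bp peak at 91.3% of the length of Dock8, an activator of Cdc42 in lymphocytes, read 28.0 RPKM in spleen and 26.5 RPKM in LI. Dock2 held a 28276-bp peak at 95.9% of its length with 22.4 and 23.6 RPKM and a 21065-bp peak at 10.9% with 21.5 and 20.3 RPKM. A 19114-bp peak at 97.5% of Rora read 12.4 RPKM in spleen and 24.2 RPKM in LI, and it was the one of these 4 whose values lay far apart. Broad domains were thus seen near both ends of Dock2 and near the 3′ ends of Dock8 and Rora.

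Position along the gene was examined by cutting each gene into 10 equal parts from its 5′ to its 3′ end, with the signal (value times peak length) divided by the later-intron bases in each part. In spleen the density was 0.775 RPKM per base in part 1, 0.469 in part 3 and 2.69 in part 10. In LI it was 0.814, 0.470 and 2.91 in these parts. Signal and bases were pooled over genes, with 4.47 Mb of later intron and 74 genes with a peak in part 1 against 8.02 Mb and 206 genes in part 10. The mix of genes thus differed between parts, and the course is not one within single genes. Over the last 2 parts together the density was 2.72 times that of the first 2 parts in spleen and 2.86 times in LI. These ratios were 1.67 and 1.73 when values were not multiplied by peak length. Coverage and peak number followed this course, since the covered share went from 4.31% in part 3 to 19.0% in part 10 and peaks per Mb went from 73.3 in part 4 to 205 in part 10. The median value of a peak differed less, with 9.58 RPKM in part 3 and 9.93 RPKM in part 10 in spleen and 9.55 and 10.4 RPKM in LI. The last 2 parts held 33.8% of the peaks and 21.9% of the later-intron bases. The scaled log2 ratio of LI to spleen lay between -0.07 and 0.07 in all 10 parts, so the profiles of the tissues nearly coincided.

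**Figure D1:**
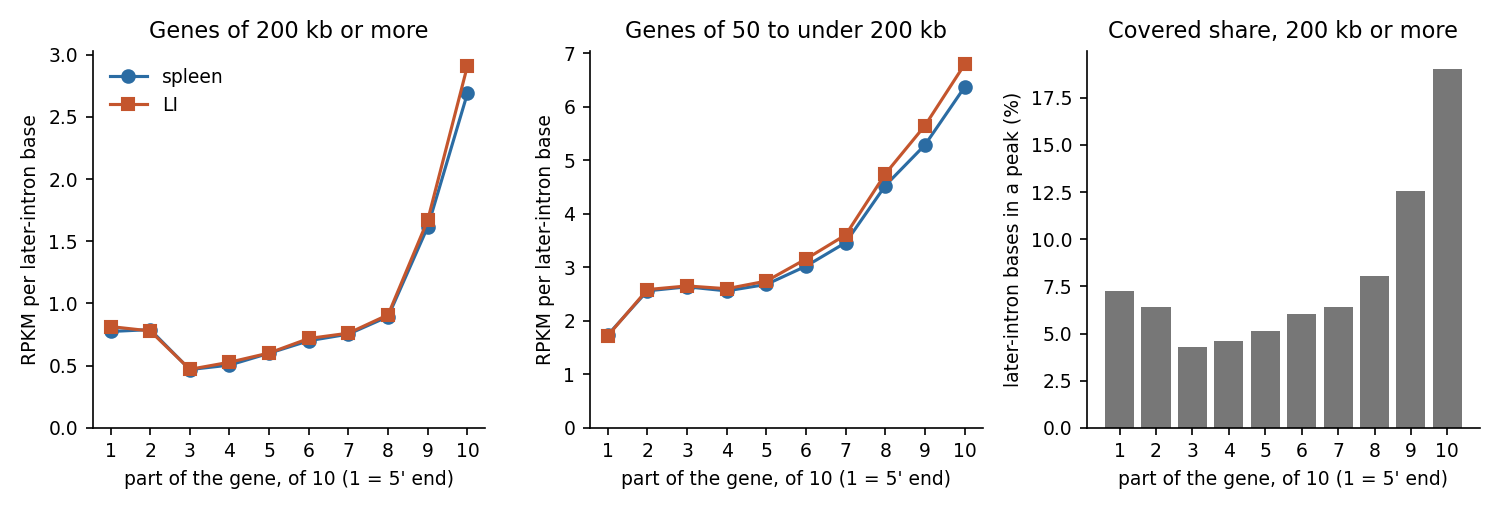
Signal density in later introns by part of the gene, from the 5′ end (1) to the 3′ end (10). Lines give RPKM per later-intron base in spleen (circles) and LI (squares) for genes of 200 kb or more (left) and of 50 to under 200 kb (middle, with its own axis range), and bars (right) give the share of later-intron bases inside a peak in the longer genes. In the longer genes the lines are lowest in part 3, at 0.469 and 0.470, and end at 2.69 and 2.91.

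The same measure in the later introns of the 2073 coding genes of 50 to under 200 kb gave a late-to-early ratio of 2.55 in spleen and 2.71 in LI. The shapes differed after the start. In the shorter genes the spleen density was 1.74 in part 1, 2.64 in part 3 and 6.37 in part 10, with no dip as in the longer genes, and it was higher in every part. In part 5, peaks covered 5.13% of the later-intron bases of the longer genes and 21.1% of those of the shorter genes. No test of these differences was possible with 1 library per tissue.

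Single genes differed in how much of the body carried peaks. Of the 181 genes with at least 10 peaks, 134 had peaks on both sides of the gene midpoint, 42 had them only on the 3′ side and 5 only on the 5′ side. The median gene had its first peak at 21.4% and its last peak at 97.9% of its length, and 152 of the 181 genes had a peak in part 10. In 30 of the 42 genes with 3′ peaks only, at least 25% of the later-intron bases lay before the midpoint, so the rule left room for peaks there, and in 24 of the 42 no peak of any kind lay before the midpoint. In 19 of the 42 genes an annotated transcript start of the same gene lay within 5 percentage points upstream of the first peak. Such a start was also found in 71 of the 134 genes with peaks on both sides.

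Several genes had later-intron peaks on the 3′ side only. In Celf2, an RNA-binding regulator of splicing, the first of 68 peaks lay at 81.6% of the gene, just past a transcript start at 81.2%, and no peak of any kind lay before the midpoint. In Rora, which encodes the nuclear receptor RORα, the first of 52 peaks lay at 86.8%, past a start at 86.6%, but the rule left no later-intron base before its midpoint. In Syne1, which encodes a giant protein of the nuclear envelope, 76 peaks began at 67.9%, past a start at 67.2%. In Nav2, a cytoskeleton-binding protein first described in neurons, 126 peaks began at 64.7%, past a start at 62.0%, although 2 other peaks lay before the midpoint. In Asap1, a GTPase-activating protein for Arf, 60 peaks began at 59.3%, past a start at 58.9%, although 8 other peaks lay before the midpoint. Fry, the counterpart of the Drosophila furry protein, began at 60.0% with its nearest upstream start at 46.6%. Since a start within 5 percentage points was found in only 19 of the 42 genes with 3′ peaks only, the genes named here do not show its share. The 5 genes with peaks on the 5′ side only were Bcas3, a, Prim2, Commd10 and AW554918, and in the gene named a 17 of 20 peaks also lay in another coding gene. Syne1 and these 5 genes were chosen after their values were seen.

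**Figure D2:**
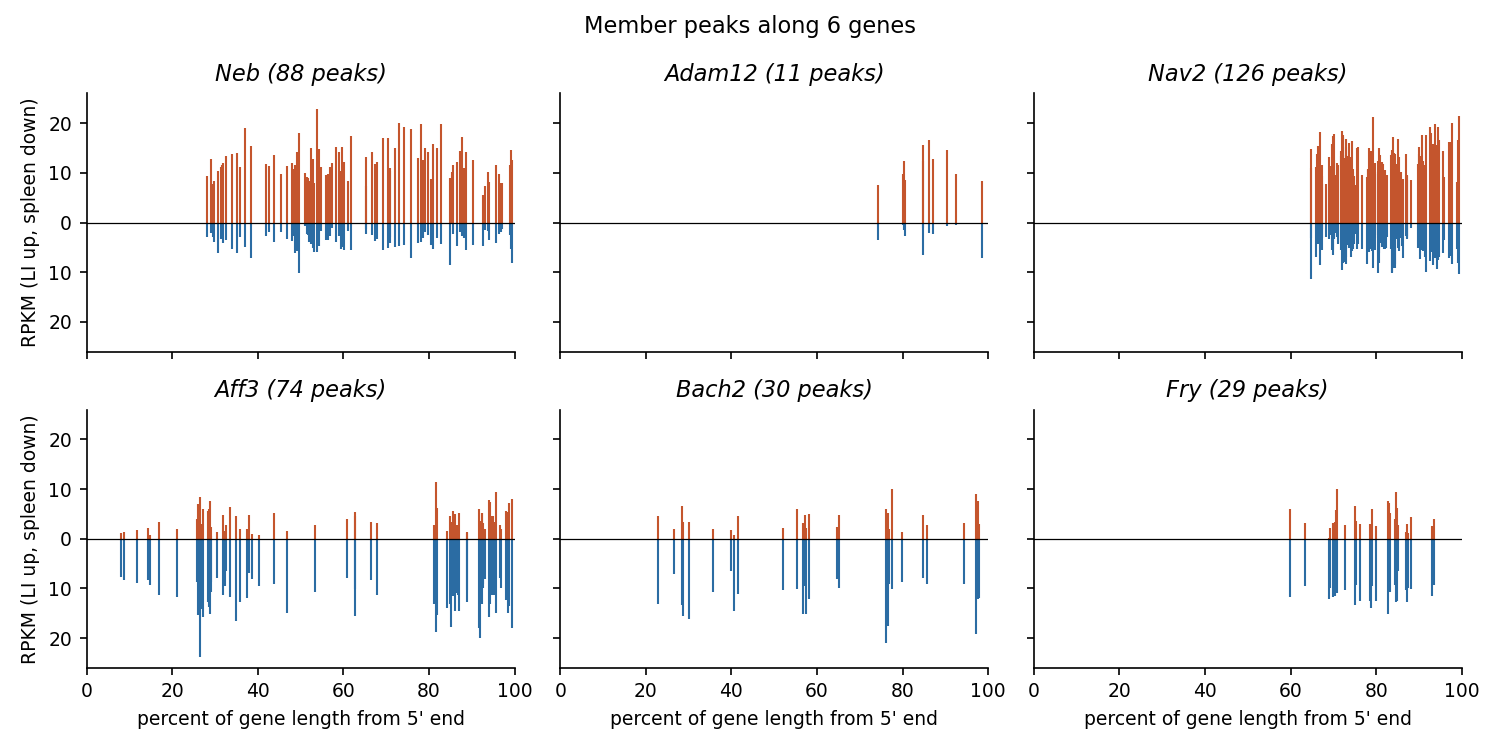
Later-intron peaks along Neb, Adam12 and Nav2 (upper row) and Aff3, Bach2 and Fry (lower row). Each line is 1 peak at its position in percent of gene length from the 5′ end, with its RPKM in LI drawn upwards and in spleen downwards. Peaks of Nav2 begin at 64.7% and those of Adam12 at 74.3%, while those of Aff3 run from 7.96% to 99.3%, and the longer side is LI in the upper row and spleen in the lower row.

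For the comparison of tissues, the values of all later-intron peaks of a gene were summed, and the log2 ratio of LI to spleen was taken after scaling each library to its total over all peaks. The total of LI was 1.03 times that of spleen. Of the 283 genes, 257 had at least 20 RPKM over both libraries and 26 did not and were left out of this comparison. The median ratio over the 257 genes was 0.02 (95% interval of the median over genes -0.05 to 0.10), and the interquartile range was -0.30 to 0.31. In LI 133 genes were higher (46.6% of 6793 coding genes with later-intron peaks were higher in LI) and in spleen 124. Of the single peaks, 47.9% were higher in LI against 49.0% of all peaks. The interval of the median held 0, but it reflects the spread over genes in 1 library per tissue. Genes are not replicates, and the difference between mice or preparations is not in it.

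The ratios of very long genes were more spread out than those of shorter genes. The width of the interquartile range was 0.61, which was 1.44 times that of genes of 50 to under 200 kb and 1.47 times that of genes under 50 kb, and the SD was 0.62 against 0.48 and 0.46. The median counting error of a gene sum was 0.13 in the very long genes and also 0.13 in genes of 50 to under 200 kb, whereas it was 0.18 in genes under 50 kb. More than 2-fold higher in LI were 14 genes (5.45%, against 3.03% of all coding genes with later-intron peaks), and more than 2-fold higher in spleen were 9 genes (3.50% against 2.24%). Of these, 7 of the 14 and 3 of the 9 rested on fewer than 10 peaks. The approximate 95% counting interval lay wholly above 0 in 70 genes (27.2% against 15.0%) and wholly below 0 in 65 genes (25.3% against 16.3%). All coding genes had a larger median counting error (0.16), which widens their intervals. In genes of 50 to under 200 kb, with an error of 0.13, the shares were 17.99% above 0 and 23.47% below 0. By these intervals the excess of the very long genes over that class lay mostly on the LI side. That class itself leaned to spleen, with a median ratio of -0.05. At the 2-fold threshold that class had 3.599% of genes higher in LI and 2.23% higher in spleen. The excess at that threshold thus lay on both sides. The counting intervals cover counting error only, and the difference between mice or preparations is not in them. Peaks were called per tissue and then merged, so a gene could gain peaks through the tissue where it was higher. This can widen the gene ratios and raise the counts of genes in both directions, and these values are descriptions. The median ratio was 0.07 higher than that of genes of 50 to under 200 kb (-0.05), and this difference was 0.0003 after a correction for GC content. Its interval from the spread over genes, -0.003 to 0.149, held 0, but it does not cover the difference between libraries.

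**Figure D3:**
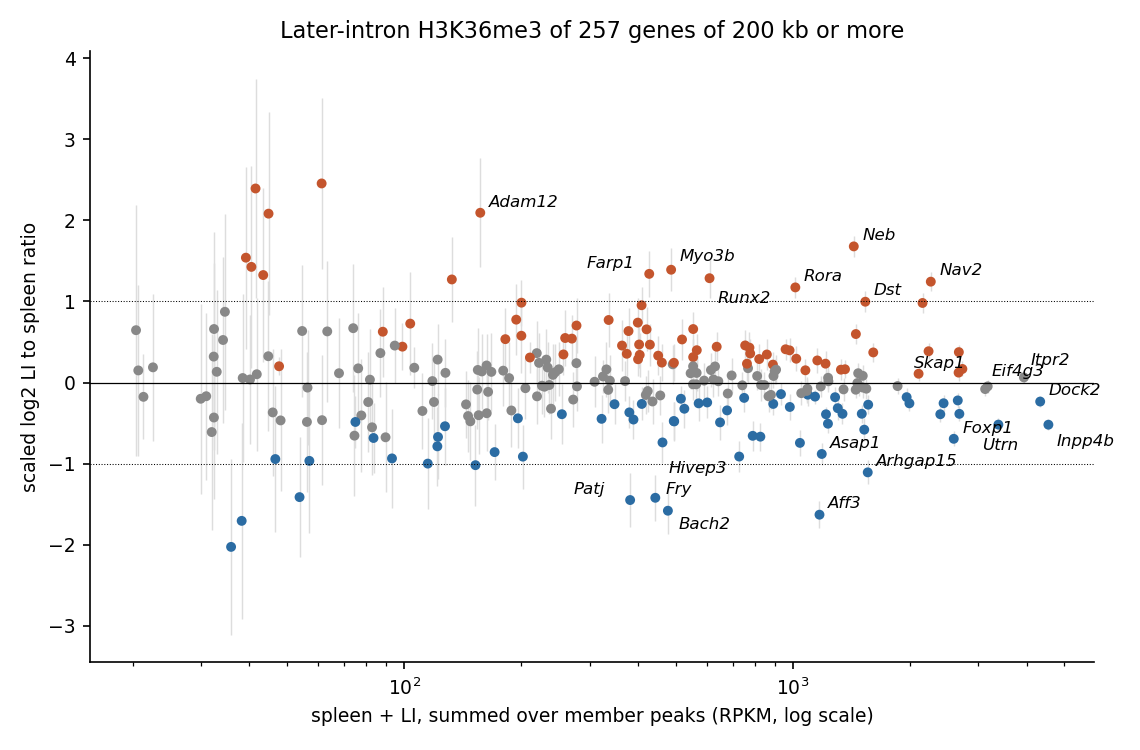
Scaled log2 ratio of LI to spleen of each of the 257 genes against its summed signal in both libraries (RPKM, log axis). Bars are approximate 95% counting intervals. Coloured points have an interval wholly above 0 (70 genes, LI side) or wholly below 0 (65 genes, spleen side), grey points hold 0, and dotted lines mark a 2-fold difference. The 22 genes named by rule for ratio, signal or number of peaks are labelled, with Neb, Nav2 and Rora high on the LI side and Aff3, Bach2 and Arhgap15 low on the spleen side.

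Neb led the genes that were higher in LI. It encodes nebulin, a giant actin-binding protein of skeletal muscle thin filaments, and lies at chr2:52136647-52378474 on the minus strand. Its 88 later-intron peaks summed to 333 RPKM in spleen and 1103 RPKM in LI, a scaled log2 ratio of 1.68 (counting interval 1.55 to 1.81) or 3.20-fold. All 88 peaks were higher in LI. Peaks were called per tissue and then merged, so a peak could enter through the tissue where it was high. Counts of peaks by direction are therefore descriptions, here and in the genes below. In spleen they ranged from 0.118 to 10.2 RPKM with a median of 3.70, and in LI from 5.60 to 22.9 RPKM with a median of 12.0, so most LI values lay above the highest spleen value although the ranges overlapped. The ratio was 1.51 before the midpoint of the gene and 1.74 past it. The 32 other peaks in the gene body, which the rule left out, summed to 165 RPKM in spleen and 455 RPKM in LI.

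The next genes on the LI side came from different families. Adam12, a membrane-bound metalloprotease, rested on 11 short peaks between 74.3% and 98.5% of its length with 28.7 RPKM in spleen and 128 RPKM in LI, and its ratio of 2.09 had a wide interval of 1.42 to 2.77. Nav2 had 658 RPKM in spleen and 1609 RPKM in LI over 126 peaks, a ratio of 1.24 (1.13 to 1.36), and 125 of its peaks were higher in LI. Myo3b, a class III myosin, had 131 and 355 RPKM over 31 peaks, with a ratio of 1.39 (1.12 to 1.66). Of these 3 genes, Nav2 thus had by far the most signal and the narrowest interval.

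Farp1 had 118 RPKM in spleen and 309 RPKM in LI, a ratio of 1.34 (1.06 to 1.62), with all 21 peaks higher in LI. Runx2, a Runt family transcription factor best known from bone, had 173 and 437 RPKM over 37 peaks, a ratio of 1.29 (1.04 to 1.53). Rora had 305 and 711 RPKM, a ratio of 1.17 (1.04 to 1.31). All 52 Rora peaks were higher in LI, over a range of 0.12 to 2.27 in the log2 ratio. Dst, which encodes the cytoskeletal linker dystonin, had 502 and 1035 RPKM over 80 peaks, a ratio of 1.00 (0.87 to 1.12), with 77 peaks higher in LI. The peaks of Myo3b and Runx2 ended at 71.0% and 64.5% of the gene, whereas those of the other 6 genes ended between 97.5% (Rora) and 99.7% (Dst).

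Aff3 led the genes that were higher in spleen. It encodes a nuclear protein of the AF4 family expressed in lymphoid tissue and lies at chr1:38177326-38664955 on the minus strand. Its 74 peaks summed to 879 RPKM in spleen and 293 RPKM in LI, a ratio of -1.63 (-1.80 to -1.46) or 3.09-fold towards spleen. All 74 peaks were higher in spleen. They ranged from 6.15 to 23.9 RPKM in spleen with a median of 11.4, and from 0.547 to 11.5 RPKM in LI with a median of 3.44. The ranges overlapped, and the ratio was -1.76 before the midpoint and -1.55 past it.

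Bach2, a repressor that keeps lymphocytes in a resting state, followed with 355 RPKM in spleen and 122 RPKM in LI over 30 peaks, a ratio of -1.58 (-1.87 to -1.30). No Bach2 peak was higher in LI, and the ratio was -1.93 before the midpoint and -1.44 past it. Fry had 320 and 123 RPKM over 29 peaks, all higher in spleen, and a ratio of -1.42 (-1.71 to -1.14). Patj, a scaffold of epithelial polarity complexes, had 277 and 104 RPKM over 25 peaks, a ratio of -1.45 (-1.78 to -1.12). Arhgap15, which switches off Rac, had 1055 RPKM in spleen and 505 RPKM in LI over 106 peaks, a ratio of -1.11 (-1.26 to -0.96).

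Smaller differences were seen in Asap1 (-0.88, interval -1.02 to -0.74) and in Hivep3, a zinc finger transcription factor (-0.91, interval -1.10 to -0.72), although 14 of the 38 Hivep3 peaks also lay in another coding gene. Foxp1, a forkhead factor needed for quiescence of naive T cells, had 1586 RPKM in spleen and 1011 RPKM in LI over 137 peaks, a ratio of -0.69 (-0.79 to -0.60), and 123 peaks were higher in spleen. Its 22 peaks before the midpoint had a ratio of -1.23 and its 115 peaks past it one of -0.61.

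The 6 genes with the most signal differed by at most 1.43-fold between the tissues. Inpp4b had 2646 RPKM in spleen and 1904 RPKM in LI (ratio -0.52), Utrn had 1967 and 1416 RPKM (-0.52) and Dock2 had 2309 and 2025 RPKM (-0.23). Itpr2 had 1894 and 2042 RPKM (0.06), Eif4g3 had 1589 and 1587 RPKM (-0.05) and Skap1 had 1583 and 1545 RPKM (-0.08), and the intervals of these 3 genes held 0. After scaling, the sums of each of these 3 genes in spleen and LI lay within 1.06-fold.

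By function, the 8 transcription factors of T cells that could be compared split between the tissues. For the counts of intervals in this and the other lists, the shares over all 257 very long genes were 27.2% above 0 and 25.3% below 0, beside 15.0% and 16.3% over all coding genes. Runx1 (0.38), Rora and Runx2 had an interval above 0, whereas Aff3, Bach2, Foxp1 and Tcf12 (-0.44) had one below 0, and the median of the list was -0.30 beside -0.03 over all coding genes with later-intron peaks. Among 18 genes of antigen receptor and second messenger signalling 7 lay above 0 and 6 below, with a median of 0.05. Genes of the lists beyond the 4 with the most signal were chosen after their values were seen. Those above included the calcium/calmodulin kinases Camk1d (0.55) and Camk4 (0.33) and the phosphodiesterases Pde4b (0.35) and Pde4d (0.31), which break down cyclic AMP. Those below included the exchange factor Vav3 (-0.94), the thymocyte selection protein Themis (-0.67) and the protein kinases C Prkcb (-0.48) and Prkca (-0.39). None of the 18 differed more than 2-fold.

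Of the 9 chromatin regulators 3 lay below 0 and none above, with a median of -0.15. Arid1b, a subunit of SWI/SNF remodelers, had 591 and 590 RPKM (-0.05), and Hdac4, a histone deacetylase, had 427 and 466 RPKM (0.08). Of the 8 RNA-binding proteins 2 lay above 0 and 1 below, with a median of 0.04. Msi2, an RNA-binding protein of stem and progenitor cells, had 1259 and 1414 RPKM (0.12), Celf2 had 673 and 613 RPKM (-0.18) and Tnrc6b, which acts with Argonaute in silencing, had 555 and 533 RPKM (-0.10). Of 6 genes of ubiquitin ligases and turnover 2 lay above 0 and none below. Among them Atg7, an enzyme of autophagy, had 335 and 443 RPKM (0.36), and Lrba, a trafficking protein needed to retain CTLA-4, had 287 and 329 RPKM (0.15, interval -0.05 to 0.36). The 3 fragile site genes, Exoc4 (0.36), Fto (0.28) and Wwox (0.46), had intervals that held 0.

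The study defined signature genes of colonic and of splenic Treg cells from published expression data of other samples. Of the 17 colonic signature genes that could be compared here 15 were higher in LI, 10 of them more than 2-fold, with a median ratio of 1.24. Over all very long genes 133 of 257 were higher in LI and 5.45% more than 2-fold, and over all coding genes with later-intron peaks 46.6% and 3.03%. Rasgef1b (-0.55) and Phlpp1 (-0.32) leaned to spleen with intervals that held 0. All 5 splenic signature genes were higher in spleen, 3 of them more than 2-fold (3.50% of very long genes and 2.24% of all coding genes), with a median of -1.58. They were Ssbp2, Aff3, Bach2, Themis and Dnah8, and Dnah8, a dynein heavy chain gene, had 118 peaks with 1342 RPKM in spleen and 1056 RPKM in LI, a ratio of -0.39.

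Tissue ratios of the later introns were compared with those of the other peaks of the same gene, that is, peaks in exons, first introns or near starts. Over the 227 genes with both, Pearson's r was 0.81 and Spearman's coefficient 0.71, 179 had the same sign, and the median difference was -0.02 (interquartile range -0.18 to 0.20). For first introns alone, r was 0.74 over 58 genes. Both sets of peaks come from the same 2 libraries, and share their depth, so the values describe these libraries only. Hivep3 had -0.91 in later introns and -0.09 in its 7 other peaks.

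**Figure D4:**
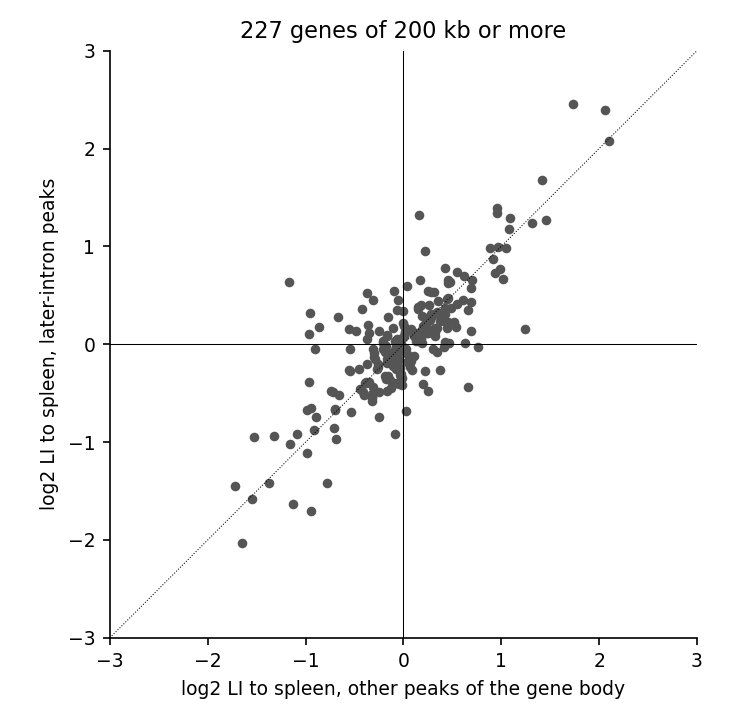
Scaled log2 ratio of LI to spleen summed over later-intron peaks (vertical) against that of all other peaks of the same gene body (horizontal), 1 point per gene, 227 genes of 200 kb or more. The dotted line marks equal ratios, and the points follow it with r = 0.81.

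Ratios on both sides of the midpoint were compared in the 115 genes with at least 3 peaks on each side. The ratio on the 3′ side minus that on the 5′ side had a median of 0.03 and an interquartile range of -0.16 to 0.24, 64 genes were higher on the 3′ side, and r between the sides was 0.73. Arhgap15 had -1.11 on both sides and Itpr2 had 0.06 and 0.07. The difference was larger than 1 in 3 genes, which were chosen after their values were seen. In Akap13, an anchoring protein, the 5′ side had 123 RPKM in spleen and 48.3 RPKM in LI (-1.39) over 12 peaks, and the 3′ side had 718 and 616 RPKM (-0.27) over 63 peaks. In Cux1, a homeodomain protein, the 5′ side rested on 3 peaks with 7.93 and 27.7 RPKM. The gene model Gm20696 shared all 31 of its peaks with other coding genes, so its sides cannot be read as 1 gene.

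Single peaks scattered widely around the ratio of their gene. Gene membership accounted for 35.5% of the variance of the peak log2 ratio in the 181 genes with at least 10 peaks, against 26.6% in genes of 50 to under 200 kb, and for 73.5% over the 997 peaks of 1 kb or longer in 53 genes, a smaller set of genes as well as of peaks. In 9 of the 181 genes every peak leaned the same way, a count that the calling of peaks per tissue can raise. These were Neb, Rora, Farp1, Adam12 and the gene model Gm20388 towards LI, and Aff3, Bach2, Fry and Baz2b towards spleen. All 15 Gm20388 peaks also lay in another coding gene.

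The peaks lay close to exons. The median distance from a peak midpoint to the nearest annotated exon was 1788 bp, against 5527 bp for the later-intron bases of the same genes. Within 1 kb of an exon were 34.5% of peaks but 15.0% of bases, a 2.30-fold difference, and more than 20 kb away were 4.05% of peaks but 15.7% of bases. The peaks near exons were also longer, with a median of 450.5 bp within 1 kb against 313 bp beyond 20 kb, and read 10.1 against 8.76 RPKM in spleen. The median ratio of single peaks was -0.0016 within 1 kb and -0.09 beyond 20 kb.

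**Figure D5:**
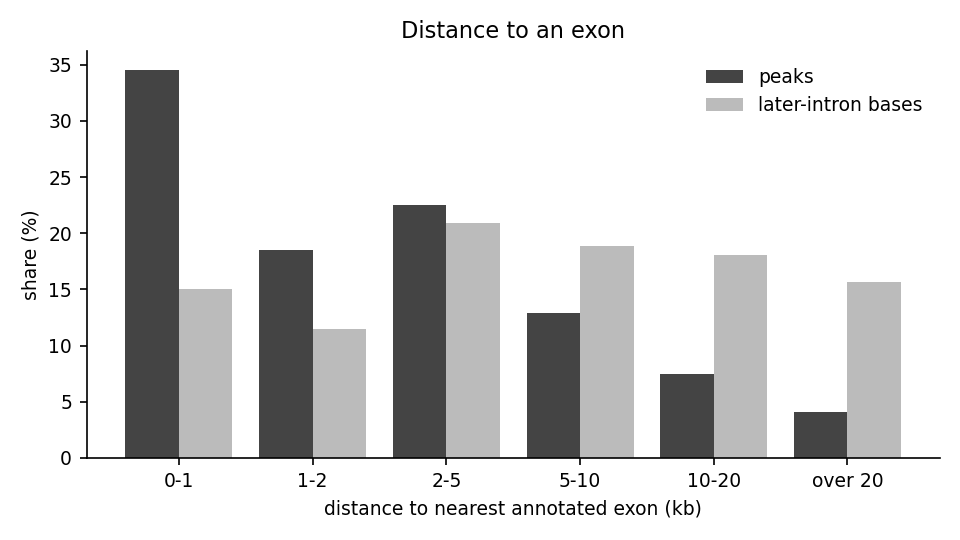
Share of the 8905 peaks (dark bars) and of the later-intron bases of the same genes (light bars) by distance to the nearest annotated exon in kb. Peaks exceed bases within 1 kb (34.5% against 15.0%) and fall short beyond 20 kb (4.05% against 15.7%).

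The peaks also differed from the surrounding intron in sequence. Over all their bases, GC content was 46.5% against 42.7% in the later introns, repeats made up 16.8% against 26.1%, and there were 1.24 CpG dinucleotides per 100 bases against 0.882. Nearness to exons and GC content were not separated here. The comparisons of exon distance and of sequence pooled all genes with a peak, so differences between genes rich and poor in peaks are mixed with local ones. GC content moved with the tissue ratio as well. In the quintile of peaks with the lowest GC content the median ratio was -0.40, with medians of 9.34 RPKM in spleen and 7.73 RPKM in LI, and in the quintile with the highest it was 0.20, with 9.48 and 11.0 RPKM. Within genes the slope was 0.30 per 10 points of GC content. The 70 genes with an interval above 0 had a median peak GC content of 48.7% and the 65 genes below 0 one of 46.7%, and the part of GC content in the ratios was not tested beyond a correction. After a correction for GC content the ratio of Neb, whose peaks were low in GC content (42.9%), was 1.81 and that of Aff3 (48.5%) was -1.71, while Inpp4b (41.1%) moved from -0.52 to -0.31 and Utrn (42.7%) from -0.52 to -0.38.

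The annotation places 22 of the peaks in more than 1 gene of 200 kb or more, and in 23 genes more than 50% of the peaks also lay in another coding gene. On the X chromosome lay 91 peaks. Just inside the length limit, 4930402H24Rik (200.2 kb) had a ratio of 0.29, Ppp1r12b (201 kb) 0.16 and Bri3 (202 kb) -0.12, and just outside it Atp9b (199.9 kb) had 0.14, Clec16a (199.5 kb) 0.34 and Mical3 (199.3 kb) -0.79.

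Markers of cell identity were read as H3K36me3 over the whole gene body. Of 6 Treg and T cell markers 5 had peaks, and the remaining one, Trac, was not in the coding annotation used. Foxp3, the lineage factor of Treg cells, had 133 RPKM in spleen and 156 RPKM in LI. Ctla4 had 66.1 and 103 RPKM and Cd4 had 73.9 and 83.2 RPKM. In the other direction, Il2ra had 247 RPKM in spleen and 242 RPKM in LI and Cd3e had 51.8 and 40.1 RPKM. Of 6 B cell markers Cd79a and Pax5 had peaks (51.3 RPKM in spleen and 39.7 RPKM in LI over both), of 5 myeloid markers Csf1r and Cd68 did (29.7 and 31.3 RPKM), and of 5 epithelial markers Epcam and Vil1 did (29.9 and 59.8 RPKM). Of 4 stromal and endothelial markers Pecam1 had 911 RPKM in spleen and 500 RPKM in LI over 65 peaks and Col1a1 had 33.6 and 67.1 RPKM. Col3a1 and Kdr had no peak. Which cells carried the Pecam1 signal, the sorted T cells or others, was not tested, so it is not a measure of endothelial cells. The part of other cell types in the ratios was not tested, and in bulk libraries fewer marked cells and less mark per cell cannot be told apart.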

How the data were processed

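H3K36me3 ChIP-seq of sorted spleen and LI Treg cells was analysed, with 1 library per tissue. Per the authors, single-end reads of 75 nt were aligned to mm10, peaks were called per tissue with MACS2 against input and merged with bedtools, and coverage tracks scaled to RPKM were averaged over each merged peak. The deposited values are thus mean RPKM and not counts, although the table is labelled as raw counts. A read was worth 1.69 RPKM in spleen and 1.31 RPKM in LI, which corresponds to about 29.6 and 38.1 M mapped reads. Counting intervals (95%) were approximated from these steps with each read assumed to cover 200 bp. The calculation was run on simulated data built with the same 200 bp, so that length itself was not tested.

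Peaks were assigned by midpoint to GENCODE M21, and the longest coding transcript was that with the greatest spliced length. A midpoint in several qualifying genes went to the shortest. The log2 ratio was log2((LI + 0.5)/(spleen + 0.5)) minus the log2 ratio of the column totals (0.05), for genes whose libraries together reached 20 RPKM. Genes were named by rule among those with at least 10 peaks and 100 RPKM: the 8 per direction with the most extreme interval bound, the 6 with most signal, the 5 with most peaks and up to 4 per list. Others were named after their values were seen. One gene list is not reported here. The members and lists were chosen with earlier results of these data known. Python 3.11.15, numpy 2.4.6 and pandas 2.3.3 were used.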

Additional observations from a re-analysis of the deposited data

How the results depend on the processing

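No paired analysis was possible because each tissue had 1 library, and for the same reason no replicate could be left out. The median gene ratio, whose interval held 0 as reported, was below 0 under 4 alternatives, with -0.02 at 150 kb, -0.0073 with peaks in no other annotated gene, -0.0066 without a filter and -0.0017 with the GC correction. None of the 22 genes named for signal or ratio changed sign under 4 settings, including Itpr2, Eif4g3 and Skap1, whose intervals held 0. The set held 13930 peaks with a gene length of at least 150 kb and 4009 with at least 300 kb. The 14 genes more than 2-fold higher in LI became 26 at 150 kb, 8 at 300 kb, 6 with a filter of 200 RPKM and 6 with peaks of 500 bp or more. The 9 genes more than 2-fold higher in spleen became 21 without a filter on low values, 5 with a filter of 200 RPKM and 4 with peaks of 500 bp or more. When the counting interval had to lie wholly past 2-fold, a choice made after seeing the data, 9 and 4 remained by count. The late-to-early density ratio was 2.28 in spleen and 2.40 in LI when the longest transcript was taken by genomic span, 2.99 and 3.12 at 150 kb, 2.23 and 2.42 at 300 kb, 3.39 and 3.53 with peaks of 500 bp or more, 1.67 and 1.73 when values were not multiplied by length, and 2.51 and 2.60 for the first against the last of 3 equal parts. The highest median gene ratio was 0.06, at 300 kb. The length class difference was 0.0003 with the GC correction and at most 0.09. Of the 88 values of these genes 81 stayed within the counting interval of the reported value and 7 did not, among them Foxp1, which was -0.46 when weighted by peak length. Why these values moved was not tested. Counting error limits single peaks, and differences between mice or preparations cannot be estimated.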
